A study of Rattus norvegicus with 6 samples.

Results

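The C1q/TNF-related proteins (CTRPs) are a family of secreted proteins. A typical member carries a signal peptide, a collagen-like stretch of Gly-X-Y repeats and a C-terminal globular C1q domain, whose fold resembles that of tumour necrosis factor, and members assemble into trimers and larger complexes much as adiponectin does. In cartilage the best known member is CTRP3, encoded by C1qtnf3 and also called cartducin, which is made by growth plate chondrocytes and has been linked to the growth of their precursors. The genes described here are the 8 whose symbol in the deposited tables was C1qtnf1, C1qtnf2, C1qtnf3, C1qtnf4, C1qtnf5, C1qtnf6, C1qtnf7 or C1qtnf12, out of 18923 genes listed. Each symbol matched a single Ensembl identifier. The family was selected on the difference in expression between RA and CON, which was already known, C1qtnf3 being a gene that the study had listed for its change. The values of the 8 genes in that comparison are therefore a description and no p-value is given for them.

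Primary chondrocytes were isolated by collagenase from cartilage of wild-type female Sprague-Dawley rats aged 24 h and used at passage 1 or 2. CON cells (n = 3) were kept for 24 h in high-glucose DMEM with 10% fetal bovine serum and antibiotics, and RA cells (n = 3) for 24 h in the same medium with 1 µM all-trans retinoic acid, the active form of vitamin A, which binds nuclear retinoic acid receptors. Both groups therefore shared the serum, and the labels name no vehicle for CON. Poly(A) RNA was sequenced, and each library came with raw read counts per gene and with FPKM, the count scaled by gene length and by the library total. The samples are described as independent, without saying whether they came from separate animals, so the errors measure the spread between these samples.

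Library totals ran from 29370025 to 38007486 counts. The library CON 1 stood apart from CON 2 and CON 3: the chi-square per degree of freedom between its counts and theirs was 39.4 and 63.5, against 6.40 to 8.13 for the other 4 pairs within a group, so no library was a copy of another of its own group. Of 5 retinoid response genes, 4 were DEGs, higher in RA (80%, against 2.67% of all tested genes), namely Cyp26a1 at a log2 fold change of 3.35 (SE 0.276), Cyp26b1 at 2.65 (SE 0.115), Rarb at 1.43 (SE 0.376) and Dhrs3 at 0.63 (SE 0.0765). The call of Rarb was lost when any sample other than CON 1 was left out, with a replicate block (1.46) and in limma on log2(FPKM + 0.1) (1.16) or log2(FPKM + 1) (0.40), and Stra6 had -0.44 (SE 0.358, adjusted p = 0.495, edgeR), between -0.71 without RA 1 and -0.18 without CON 2. All 10 chondrocyte markers were tested, and 9 were called lower in RA (90%, against 2.29% of all tested genes). These were Col2a1, Acan, Col9a1, Col11a1, Hapln1, Matn1, Matn3, Comp and Cnmd, with log2 fold changes from -1.65 (Matn3) to -0.60 (Col11a1), while Sox9 had -0.49 (adjusted p = 0.00608, edgeR), under the fold threshold. Col11a1 lost its call without CON 1 (-0.56), and Comp (-0.64) lost it without CON 3 (-0.56) or RA 1 (-0.57). Their summed level was 8030 to 9928 FPKM in CON and 5034 to 5364 FPKM in RA. In bulk RNA, fewer cells of a type and less RNA per cell cannot be told apart.

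C1qtnf3 and C1qtnf7 are the members with the largest differences between the groups, and their promoter sequences are shown for that reason, as the 250 bases before the RefSeq transcription start on build GRCr8, 5′ to 3′ on the strand of the gene. Capitals mark any base of a retinoid receptor half-site, searched on both strands as the consensus AGGTCA and as the close variants GGGTCA and AGTTCA and also GGTTCA, with overlapping matches allowed. C1qtnf3 lies at chr2:61644066-61644315 on the plus strand and C1qtnf7 at chr14:71694035-71694284 on the minus strand. The third sequence, from the promoter of Cyp26a1 at chr1:244883724-244883752 on the plus strand, shows what a pair of such half-sites in direct repeat looks like in a gene that responds to retinoids.
C1qtnf3: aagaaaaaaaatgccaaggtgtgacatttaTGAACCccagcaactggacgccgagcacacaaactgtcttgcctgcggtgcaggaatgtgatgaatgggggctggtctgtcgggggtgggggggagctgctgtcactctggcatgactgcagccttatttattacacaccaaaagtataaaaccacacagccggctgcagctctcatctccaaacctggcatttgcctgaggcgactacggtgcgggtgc
C1qtnf7: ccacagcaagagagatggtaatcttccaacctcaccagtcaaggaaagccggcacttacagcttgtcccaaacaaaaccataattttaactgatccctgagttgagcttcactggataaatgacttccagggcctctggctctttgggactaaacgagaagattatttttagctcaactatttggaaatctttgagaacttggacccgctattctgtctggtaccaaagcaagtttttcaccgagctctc
Cyp26a1: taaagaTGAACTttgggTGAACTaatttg

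In windows of 300 bases (250 before and 50 after the start), 1 of the 5 members with a RefSeq window, C1qtnf3, held a half-site, against 44.4% of all 33469 windows. The C1qtnf3 match was GGTTCA on the minus strand, with its outermost base 220 bases before the start. None of the 5 held a direct repeat of half-sites spaced by 1, 2 or 5 bases, and 0.777% of all windows did, among them those of Cyp26a1 and Rarb, both at a spacing of 5. The windows of Cyp26b1 and Dhrs3, also called higher in RA, held no half-site and no direct repeat. That of Stra6, which was not called, held 1 half-site and no direct repeat. A match is only a run of letters, and its lack says nothing of elements outside these windows. The C1qtnf7 window belongs to a start inside the span annotated for that gene, and which start these cells use was not measured.

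The family was far from uniform in level. In CON, C1qtnf5 was highest at 76.0 ± 13.9 FPKM (SD, n = 3), followed by C1qtnf3 at 46.9 ± 3.75, C1qtnf2 at 41.7 ± 1.97, C1qtnf6 at 33.0 ± 1.67 and C1qtnf1 at 18.4 ± 1.37. C1qtnf7 at 2.49 ± 0.0909, C1qtnf12 at 0.764 ± 0.308 and C1qtnf4 at 0.0772 ± 0.0557 FPKM were low. No pair of neighbours in that order had overlapping ranges over the 3 CON samples, though the gap between C1qtnf3 and C1qtnf2 was only from 43.1 to 42.9 FPKM. In RA the order was C1qtnf5, C1qtnf2, C1qtnf6, C1qtnf1, C1qtnf3, C1qtnf7, C1qtnf12 and C1qtnf4, again with no overlap between neighbours, though C1qtnf1 and C1qtnf3 were parted only by 20.11 against 20.05 FPKM, both in RA 1. C1qtnf3 thus stood in place 2 in CON and in place 5 in RA, and the other genes kept their relative order. By mean FPKM over the 6 samples, C1qtnf5 lay above 94.5% of all listed genes, C1qtnf3 above 87.6% and C1qtnf7 above 44.2%.

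**Figure D1:**
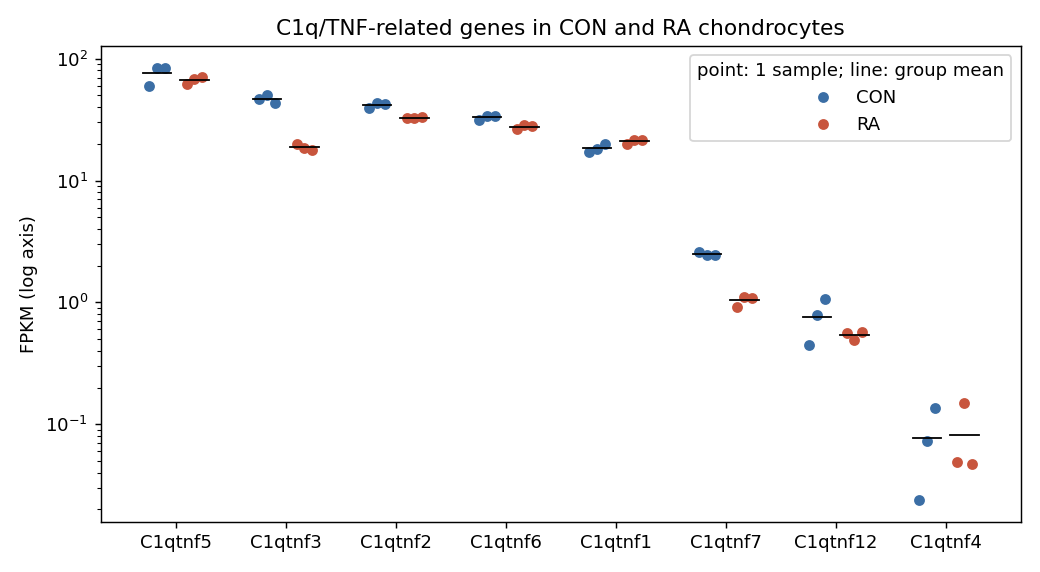
FPKM (log axis) of the 8 C1q/TNF-related genes in each CON (blue) and RA (red) sample; points are samples and black lines group means. C1qtnf3 and C1qtnf7 show the widest gap between the groups, while the points of C1qtnf5, C1qtnf12 and C1qtnf4 overlap.

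C1qtnf3 (ENSRNOG00000018570) had 46.9, 50.6 and 43.1 FPKM in CON 1, 2 and 3, and 20.1, 18.6 and 17.8 FPKM in RA 1, 2 and 3. Every RA sample was below every CON sample, with a wide gap between the groups. These levels rest on 2768 to 3147 reads per CON library and 1047 to 1143 per RA library. The log2 fold change was -1.33 (SE 0.0770), that is 2.51-fold lower in RA, and the fits that each dropped 1 sample gave -1.38 to -1.28.

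C1qtnf7 (ENSRNOG00000005094), a member known mainly from adipose tissue, was expressed at a far lower level, with 2.60, 2.45 and 2.43 FPKM in CON and 0.919, 1.11 and 1.08 FPKM in RA. Again the groups did not overlap. The counts behind it were 141 to 176 reads in CON and 52 to 64 in RA. Its log2 fold change was -1.28 (SE 0.157), or 2.42-fold lower in RA, close in size to that of C1qtnf3, and lay between -1.33 and -1.19 with 1 sample left out. With a pseudocount of 1 FPKM, large beside these levels, it was -0.78.

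C1qtnf2 (ENSRNOG00000003870), which encodes an adipose-derived CTRP linked to lipid metabolism, had 39.4, 42.9 and 42.8 FPKM in CON and 32.4, 32.7 and 33.0 FPKM in RA. The RA samples were nearly alike and all lay below CON. The log2 fold change was -0.36 (SE 0.0653), a 1.29-fold lower level.

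C1qtnf6 (ENSRNOG00000007300), whose product restrains the alternative complement pathway, had 31.1, 34.0 and 34.0 FPKM in CON and 26.7, 28.4 and 28.1 FPKM in RA. The groups did not overlap here either, but the step was small, with a log2 fold change of -0.26 (SE 0.0667). C1qtnf2 and C1qtnf6 thus lay below CON in each RA sample by much less than C1qtnf3 and C1qtnf7.

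C1qtnf1 (ENSRNOG00000003259), a glycoprotein of adipose and vascular tissue, was the only tested member with a positive log2 fold change. It had 17.1, 18.2 and 19.9 FPKM in CON and 20.1, 21.6 and 21.5 FPKM in RA. The highest CON sample and the lowest RA sample nearly met, and the log2 fold change was 0.18 (SE 0.0775).

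C1qtnf5 (ENSRNOG00000007613), the most abundant member in both groups and a gene mutated in a late-onset retinal degeneration, had 60.0, 83.4 and 84.5 FPKM in CON and 61.9, 68.3 and 71.1 FPKM in RA. The groups overlapped, and CON 1, the library that stood apart, was the lowest of the 6 samples. The log2 fold change was -0.19 (SE 0.132) over all samples and -0.34 without CON 1, while the other fits that each dropped 1 sample reached -0.097 at the other end, without CON 3. C1qtnf5 lies next to Mfrp, a membrane frizzled-related protein gene with which it can share a transcript. Mfrp itself was at 0.243 ± 0.158 FPKM in the CON samples and 0.231 ± 0.118 FPKM in the RA samples (SD, n = 3 each), and how reads of a shared transcript were assigned is not given in the sources used here.

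C1qtnf12 (ENSRNOG00000019864) encodes adipolin, an insulin-sensitizing adipokine. It had 0.446, 0.783 and 1.06 FPKM in CON and 0.564, 0.493 and 0.566 FPKM in RA, from 18 to 53 reads per library. CON spanned the whole RA range, and the log2 fold change of -0.52 (SE 0.351) moved between -0.79 without CON 1 and -0.18 without CON 3.

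C1qtnf4 (ENSRNOG00000009140), which carries tandem C1q domains and is known from the brain, had 1, 3 and 7 reads in CON and 2, 6 and 2 reads in RA. Too few reads fell on it for the count filter, and no fold change is given. Whether it differed between the groups cannot be told from so few reads. The counting floor was set at 3 counts, which correspond to 0.0789 to 0.102 CPM, that is, counts scaled by the library total.

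**Figure D2:**
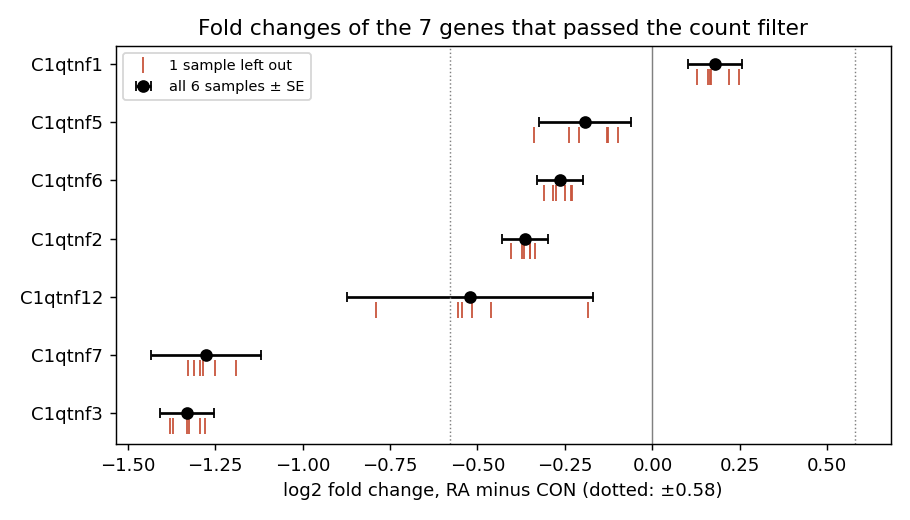
Log2 fold change (RA minus CON, black point ± SE) of the 7 members that passed the filter on low counts, with the values obtained when each of the 6 samples was left out (red ticks). C1qtnf3 (-1.33) and C1qtnf7 (-1.28) lie beyond the dotted line at -0.58 in every fit, and the ticks of C1qtnf12 spread most.

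Of the 7 members tested, C1qtnf3 and C1qtnf7 were among the differentially expressed genes (DEGs). A DEG had to reach an adjusted p under 0.05 in edgeR's test over all 13438 genes and to exceed 0.58 in the size of its log2 fold change. In that test 4.96% of all genes were DEGs and 2.29% were DEGs lower in RA. With no fold threshold, C1qtnf2 and C1qtnf6 were called too, making 4 of 7, against 9.82% of all genes. The RA and CON samples did not overlap for 4 members that were lower and for 1 that was higher in RA, against 13.3% and 18.9% of all tested genes (32.2% in either direction). The median log2 fold change over the 7 members was -0.36, and -0.0057 over all tested genes, with 6 of the 7 members below 0. The comparison was known when the family was chosen, so nothing is read from these shares.

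The make-up of the family's transcripts differed between the groups. The FPKM values of the 8 genes summed to 198, 232 and 228 in CON 1, 2 and 3 and to 163, 171 and 173 in RA 1, 2 and 3, with no overlap. C1qtnf3 made up 21.5 ± 2.43% of that sum in the CON samples and 11.1 ± 1.06% in the RA samples (SD, n = 3 each). The share of C1qtnf1 was 8.41 ± 0.490% in CON and 12.5 ± 0.134% in RA, and that of C1qtnf2 was 19.1 ± 0.786% and 19.4 ± 0.493%. Within a library, the FPKM of C1qtnf3 was 1.01 to 1.19 times that of C1qtnf2 in CON and 0.539 to 0.618 times in RA. The shares add up to a fixed total, so they do not vary independently.

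**Figure D3:**
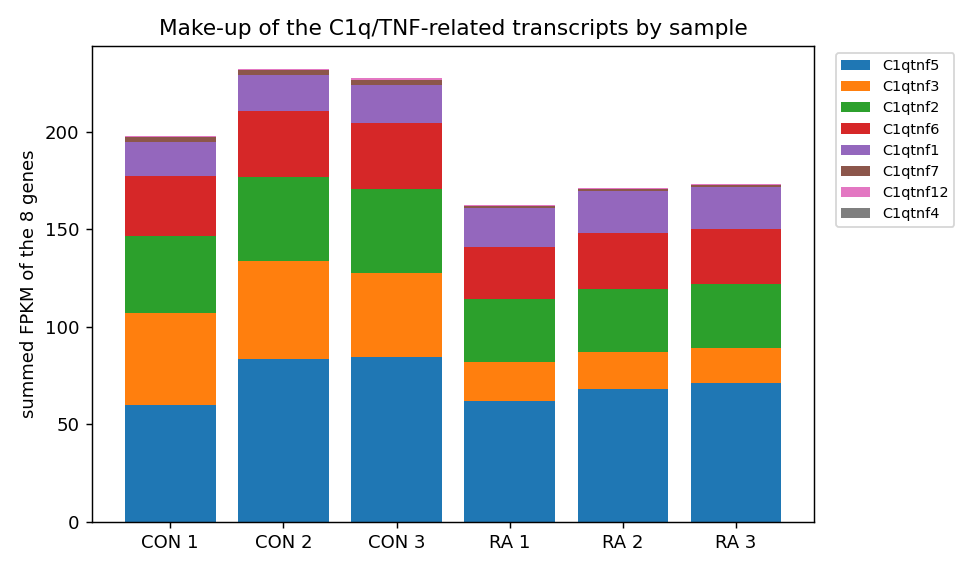
Summed FPKM of the 8 C1q/TNF-related genes in each sample, stacked by gene. The stacks reach 198 to 232 FPKM in CON and 163 to 173 FPKM in RA, and the orange C1qtnf3 block is the one that shrinks most.

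The genes whose profile over the 6 samples lay nearest to that of C1qtnf3, measured as the root mean square distance between log2(FPKM + 0.1) values centred on each gene's own mean, were Dact1 (distance 0.0663), Cnmd (0.0893), Rassf4 (0.0982), Anxa8 (0.103) and Slc26a2 (0.112), out of 11341 genes compared. Dact1 encodes a modulator of Wnt signalling, Cnmd the cartilage glycoprotein chondromodulin and Slc26a2 a sulfate transporter that supplies proteoglycan synthesis in cartilage. Cnmd had 158, 163 and 148 FPKM in CON and 57.0, 61.9 and 57.0 FPKM in RA, several times the level of C1qtnf3 with a like step. Among the family, C1qtnf7 was in place 20 of that order at a distance of 0.154, and C1qtnf2 followed in place 578. Both the step between the groups and the variation within them enter this distance. A step like that of C1qtnf3 therefore follows from how the nearest genes were chosen.

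**Figure D4:**
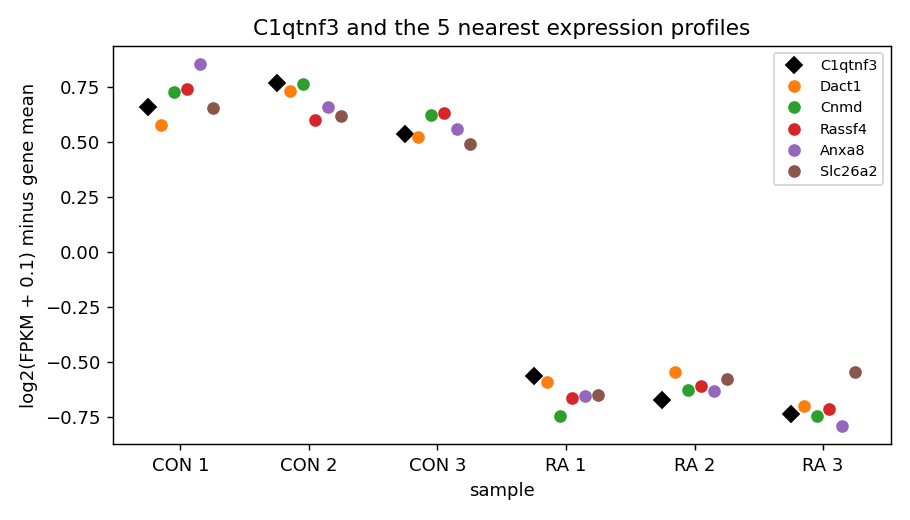
Log2(FPKM + 0.1) minus each gene's mean in the 6 samples, for C1qtnf3 (black diamonds) and the 5 genes with the nearest profiles. All 6 genes lie above their mean in each CON sample and below it in each RA sample.

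The C1q domain also occurs outside the CTRPs. A list of 24 further genes with that domain was used, of which 21 were found and 9 passed the filter. The list also held C1qtnf9, by its symbol a CTRP gene, which did not pass the filter and was not counted with the family members above. The list was drawn up with the changes of Col8a1 and Col10a1 known, so its counts and their p-values are a description and no independent evidence. Among those 9, Col8a1, Col10a1 and Mmrn2 were DEGs, all higher in RA, and none was a DEG lower in RA, against 2.67% and 2.29% of all tested genes. Their median log2 fold change was 0.13. Col8a1, a chain of the short-chain collagen VIII, had 50.7, 53.2 and 49.1 FPKM in CON and 131, 126 and 125 FPKM in RA. Its log2 fold change was 1.31 (SE 0.0540, edgeR adjusted p = 9.83e-06). Col10a1, the collagen of hypertrophic chondrocytes, was low, with 0.198 ± 0.0809 FPKM in the CON samples and 0.890 ± 0.283 in the RA samples (SD, n = 3 each). Its log2 fold change was 2.16 (SE 0.372, adjusted p = 0.00807, edgeR), and in limma on log2(FPKM + 1) it was a DEG at 0.65. Mmrn2, an extracellular matrix protein of the EMILIN family known from endothelium, had 0.336 ± 0.0238 FPKM in the CON samples and 0.894 ± 0.0932 in the RA samples (SD, n = 3 each). Its log2 fold change was 1.40 (SE 0.182, adjusted p = 0.00209, edgeR), and in limma on log2(FPKM + 1) it was no DEG, at 0.50.

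Col8a2, the other collagen VIII chain, did not follow Col8a1. It had 150, 192 and 201 FPKM in CON and 122, 135 and 129 FPKM in RA, a log2 fold change of -0.51 (SE 0.109, adjusted p = 0.0220, edgeR), short of the fold threshold. Without CON 1 it was a DEG at -0.63. Emilin1, an elastic fibre protein, was at 33.2, 49.5 and 54.1 FPKM in CON and 47.9, 51.8 and 52.1 FPKM in RA. Its log2 fold change was 0.13 (SE 0.161, adjusted p = 0.656, edgeR), and its sign turned without CON 1, to -0.053. Adiponectin itself (Adipoq), the complement chains C1qa, C1qb and C1qc, and C1qtnf9 were each at or below 0.126 FPKM in every sample.

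Of 9 genes listed as receptors and adaptors, 8 were tested. Those listed are known to bind or act below adiponectin and related proteins, except Mfrp. Mfrp, among the 8 tested, was listed for the transcript it can share with C1qtnf5. Cdh13, the T-cadherin that binds adiponectin, was the only DEG, or 12.5% of the 8, against 4.96% of all tested genes. It had 9.98, 7.76 and 9.25 FPKM in CON and 5.41, 6.05 and 5.64 FPKM in RA, a log2 fold change of -0.67 (SE 0.105, adjusted p = 0.00529, edgeR), with no overlap between the groups. In limma on log2(FPKM + 1) it was no DEG, at -0.57. The adiponectin receptor gene Adipor1 was at 105 ± 4.36 FPKM in the CON samples and 112 ± 1.03 in the RA samples (SD, n = 3 each). Its log2 fold change was 0.075 (SE 0.0580, adjusted p = 0.475, edgeR), and 0.038 without CON 1. Calr, which encodes the chaperone calreticulin, had a log2 fold change of -0.083 (SE 0.0665, adjusted p = 0.494, edgeR), and -0.012 without CON 1. The median over the 8 genes was -0.066.

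Of 12 symbols listed for enzymes of the endoplasmic reticulum that form disulfide bonds in, or hydroxylate, collagen-like secreted proteins, 11 were in the tables (Ero1l, an older symbol of Ero1a, was not matched). All 11 were tested, and none was a DEG by edgeR, DESeq2 or limma. At an unadjusted p below 0.05 there were 3 (Erp44, P4hb and P4ha3, named after their values were seen), each lower in RA, or 27.3% of the 11, against 24% of all tested genes. The most abundant were P4hb, protein disulfide isomerase, with a log2 fold change of -0.12 (SE 0.0474, adjusted p = 0.169, edgeR), and P4ha1, a prolyl hydroxylase subunit, with -0.15 (SE 0.0862, adjusted p = 0.319, edgeR), which was -0.044 without CON 1. The median over the list was -0.066.

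**Figure D5:**
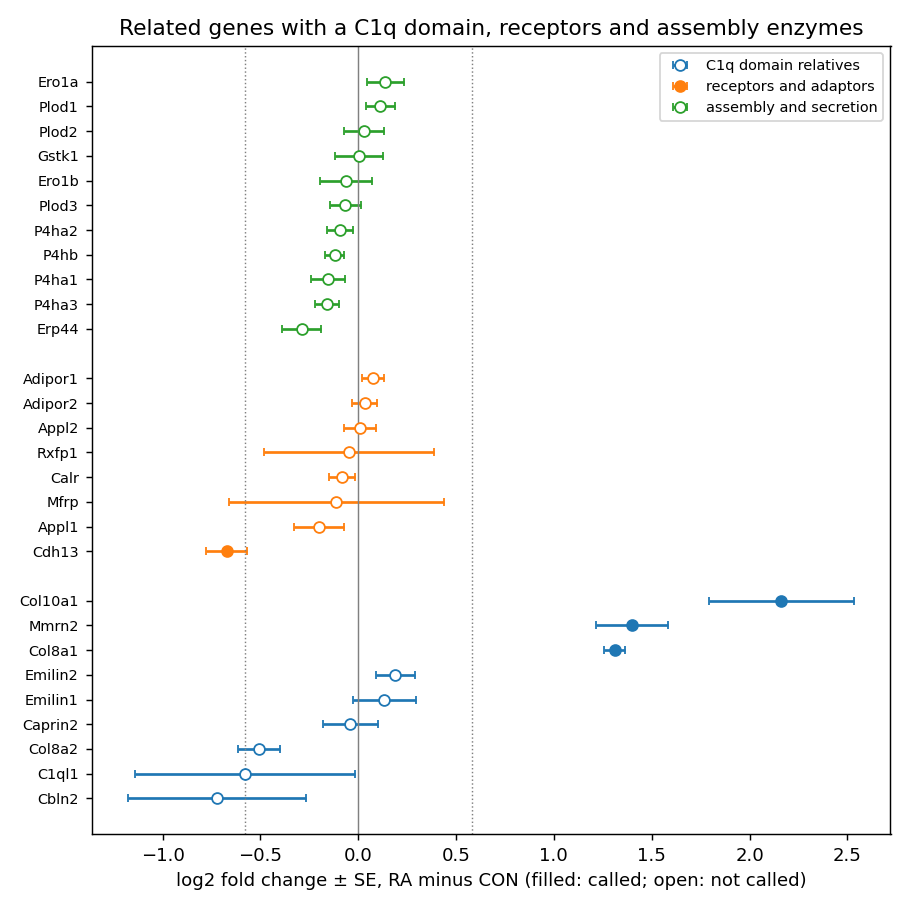
Log2 fold change ± SE (RA minus CON) of the tested genes with a C1q domain outside the CTRP family (blue), of receptors and adaptors (orange) and of assembly enzymes (green), with filled points for DEGs. The filled points are Col10a1, Mmrn2 and Col8a1 on the right and Cdh13 on the left.

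CTRPs are also made by fat and stromal cells, so markers of other cells were measured beside these results. Of 6 adipocyte markers, 5 stayed below 0.5 FPKM in every sample (Adipoq, Plin1, Cidec, Lep and Cfd), and Fabp4 was at 2.67 ± 0.468 FPKM in CON against 4.72 ± 0.612 in RA samples (SD over 3 samples). Fabp4, a fatty acid carrier gene and the 1 adipocyte marker tested, was a DEG, higher in RA at a log2 fold change of 0.81 (SE 0.203, adjusted p = 0.0411, edgeR), against 2.67% of all tested genes called higher. Its call was lost when any sample other than CON 1 was left out (0.71 to 0.90) and with a replicate block (0.81). The summed level of all 6 was 2.38 to 3.44 FPKM in CON and 4.22 to 5.53 in RA. Of 9 macrophage markers, 7 stayed below 0.5 FPKM, and the sum, mostly Cd14, was 13.2 to 14.8 FPKM in CON and 16.1 to 17.5 in RA. Of the 3 tested, Cd14 (log2 fold change 0.23, adjusted p = 0.138, edgeR) and Cd68 (0.27, adjusted p = 0.466, edgeR) were not DEGs by edgeR, DESeq2 or limma. Csf1r, the third, at 6 to 28 counts, had the largest log2 fold change, 0.91 (SE 0.493, adjusted p = 0.305, edgeR). It was no DEG by edgeR, and lay between 0.62 and 1.65 with 1 sample left out. Cd14 alone had an unadjusted p below 0.05. The 4 endothelial markers in the tables summed to at most 0.178 FPKM, with Emcn at 0 counts throughout, and 4 skeletal muscle markers to 4.57 to 5.72 FPKM in CON and 6.80 to 7.43 in RA, mostly Des. Of the endothelial genes, Tek alone was tested, at a log2 fold change of 0.15 (SE 0.724, adjusted p = 0.922, edgeR), and its sign turned without CON 2 (-0.32), CON 3 (-0.12) or RA 1 (-0.18), while it was 1.35 without CON 1. Myod1, a myogenic transcription factor gene and 1 of 2 muscle genes tested (50%, against 2.67% of all tested genes), was a DEG, higher in RA, at 0.0932 ± 0.0245 FPKM in the CON samples and 0.366 ± 0.0768 in the RA samples (SD, n = 3 each). For Myod1 the log2 fold change was 1.93 (SE 0.377, adjusted p = 0.0142, edgeR), and the call was lost without CON 2 (1.76), RA 1 (1.80) or RA 2 (1.89), and in limma on log2(FPKM + 1) (0.32). Des, the other muscle gene tested, had 0.39 (adjusted p = 0.0766, edgeR). The 7 fibroblast and perichondrium genes summed to 3747 to 4937 FPKM in CON and 4837 to 5092 in RA, and 1 of the 7, Postn (14.3%, against 2.29% of all tested genes), was a DEG, lower in RA at a log2 fold change of -1.28 (SE 0.109, adjusted p = 0.000231, edgeR). Under the fold threshold, Pdgfra (0.44, adjusted p = 0.00155, edgeR) and Twist1 (0.43, adjusted p = 0.00369, edgeR) were higher in RA and Dcn (-0.41, adjusted p = 0.0378, edgeR) lower. These 3 were named after their values were seen. The most abundant, Col1a1 and Col3a1, had 0.21 (adjusted p = 0.301, edgeR) and -0.00068 (adjusted p = 0.996, edgeR), and the median over the 7 was 0.13. Col1a1 moved between 0.078 without CON 1 and 0.33 without CON 3. The part of these other cells' markers in the values of the C1q/TNF-related genes was not tested.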

How the data were processed

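The authors deposited, per sample, whole-number read counts per gene without normalization and FPKM values, which by the ratio of count to FPKM are scaled by gene length and library total only. The submitters' processing notes name HISAT2, HTSeq 0.13.5 and Rnor_6.0; the handling of strand and of shared reads is not given in the sources used here. Counts were fitted with edgeR 4.0.16 in R 4.3.3 (filterByExpr, minimum count 10, TMM, glmQLFit and glmQLFTest, all 6 samples, no covariates, 13438 of 18923 genes tested), with Benjamini-Hochberg adjustment over all tested genes; SEs were derived from the F statistic. The script was tested on simulated data. Where identifiers shared a symbol, the one with the highest mean count was used. Members and lists were chosen with earlier results of these data known (Col8a1 and Col10a1 among them). Named genes were all members, the DEGs and the 2 most abundant other tested genes of each list, the retinoid response genes and the 5 profiles nearest to C1qtnf3 among genes with a mean of at least 1 FPKM. Mfrp, the neighbour of C1qtnf5, the macrophage marker Csf1r and genes at or near 0 were named outside that rule, after their values were seen. Promoter sequences are from RefSeq (GRCr8), and 5 of 8 members matched. Counting floors cover counting error only. Alternatives were DESeq2 1.42.0, its size factors in edgeR, no filter, limma 3.58.1 on log2(FPKM + 0.1) and log2(FPKM + 1), other call rules, each sample left out and a replicate block.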

Additional observations from a re-analysis of the deposited data

How the results depend on the processing

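The number of DEGs over all genes, 667, was 434 in limma on log2(FPKM + 1), 1017 with an unadjusted p below 0.05 and the fold threshold, and 1319 with an adjusted p below 0.05 and no fold threshold; with 1 sample left out it ran from 480 to 755. Of the 7 tested members, 2 were DEGs in each alternative except with no fold threshold, where 4 were called (C1qtnf2 and C1qtnf6 besides). Of the receptors and adaptors, 0 in place of 1 was called with log2(FPKM + 1), where Cdh13 had -0.57. Emilin1 turned to -0.053 without CON 1, the lowest of its values with 1 sample left out, and reached 0.29 without CON 3. Rarb, at low counts, kept its call in 1 of the 6 fits that left out a sample, and lost it under the replicate block (1.46). Tek, at 2 to 23 counts, ran from -0.32 (without CON 2) to 1.35 (without CON 1). Col3a1 ran from -0.081 (without CON 1) to 0.072 (without CON 3) and was 0.00072 with no filter, 0.018 in limma under either pseudocount and 0.0049 with the replicate block. Fabp4 lost its call with the replicate block (0.81), and Myod1 with log2(FPKM + 1) (0.32). Mmrn2, at a level below that pseudocount, lost its call with log2(FPKM + 1), at 0.50. Col10a1, with group means also below it, kept its call there, at 0.65. Replicate numbers are shared by the groups. Same-numbered samples deviated from their group means with correlations of 0.0928, -0.0123 and 0.0118, and differently numbered ones with -0.122 to 0.110. With 3 samples per group, these values cannot show whether same-numbered samples were paired. With the replicate block 684 genes were DEGs. Depth limits C1qtnf4.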
